A study of Rattus norvegicus with 12 samples.

Results

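The 46 genes described here drive DNA replication and mitosis, and they were taken by gene symbol from the count table of 30206 genes. They fall into 14 replication genes, 5 genes of the G1/S step and cell cycle transcription, and 27 mitotic genes. The muscle studied was the rat pubocaudalis, which belongs to the pelvic floor, and its polyadenylated RNA was sequenced after simulated birth injury (SBI), a vaginal balloon distention carried out under anesthesia late in pregnancy. All rats were 3-month-old pregnant female Sprague-Dawley rats injured on gestation day 20. Of the 4 groups, 1wk SBI is the one in which pups were removed after parturition and muscle was taken 1 week after injury, and in 1wk SBI + Lac the dams nursed their pups over the same time. The groups named 3wk SBI and 3wk SBI + Lac are the same pair taken 3 weeks after injury. Each group held 3 libraries, each made from the pooled RNA of 2 rats, and no uninjured muscle is among them, so a level without injury is not given here. Pup removal defines the non-lactating groups, so the absence of nursing and the loss of the pups cannot be told apart.

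A dividing cell copies its DNA in S phase and separates the copies in mitosis. Before S phase the loading factors Cdc6 and Cdt1 place the Mcm2 to Mcm7 ring on DNA, the GINS complex turns the ring into an active helicase, ribonucleotide reductase (Rrm1 and Rrm2) and thymidylate synthase (Tyms) supply deoxynucleotides, and Pcna clamps the polymerase to its template. At mitosis Cdk1 with cyclins A and B starts the division, kinesins and bundling proteins build the spindle, kinetochore proteins attach chromosomes and the checkpoint kinases hold the cell until all are attached, and Anln, Ect2 and Racgap1 pinch the cell apart. In injured muscle, satellite cells, macrophages, fibroblasts and endothelial cells can divide, while the nuclei of mature fibres do not. Many replication proteins also serve repair and genome maintenance outside of S phase, whereas most mitotic transcripts are at their highest in G2 and mitosis.

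Transcripts of the replication group and of the mitotic group are known to be controlled through different promoter elements, the E2F site and the cell cycle genes homology region (CHR), the latter often together with CCAAT boxes bound by NF-Y. The stretches shown here are 6 promoters of genes whose expression is given in every library, 3 mitotic and 3 replication genes, so that both kinds of element can be seen. Each is the 150 bases before the transcription start in RefSeq on GRCr8, written 5′ to 3′ on the gene's own strand, with matches in capitals. Adjoining capitals can belong to overlapping matches. The mitotic genes are Ccnb2 (chr8:79981659-79981808, minus strand), Prc1 (chr1:143659331-143659480, plus strand) and Mki67 (chr1:199952594-199952743, minus strand), and the replication genes are Mcm2 (chr4:122918095-122918244, minus strand), Mcm5 (chr19:13488663-13488812, plus strand) and Pcna (chr3:139955821-139955970, minus strand).
Ccnb2: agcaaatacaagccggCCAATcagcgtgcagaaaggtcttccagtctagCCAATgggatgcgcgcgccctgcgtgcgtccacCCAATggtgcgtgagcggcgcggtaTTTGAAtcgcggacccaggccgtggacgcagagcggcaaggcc
Prc1: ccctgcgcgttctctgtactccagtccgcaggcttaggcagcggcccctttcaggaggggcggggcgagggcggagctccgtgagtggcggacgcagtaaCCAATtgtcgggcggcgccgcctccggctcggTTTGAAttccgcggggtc
Mki67: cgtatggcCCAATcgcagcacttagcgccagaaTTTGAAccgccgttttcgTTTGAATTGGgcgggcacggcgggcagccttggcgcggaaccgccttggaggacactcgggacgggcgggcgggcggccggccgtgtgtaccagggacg
Mcm2: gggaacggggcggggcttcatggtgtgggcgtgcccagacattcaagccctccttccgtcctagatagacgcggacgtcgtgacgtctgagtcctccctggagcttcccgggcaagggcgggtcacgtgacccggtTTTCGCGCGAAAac
Mcm5: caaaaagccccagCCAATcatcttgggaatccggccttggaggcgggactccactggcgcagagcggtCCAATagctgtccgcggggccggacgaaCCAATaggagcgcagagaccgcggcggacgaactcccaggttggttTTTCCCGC
Pcna: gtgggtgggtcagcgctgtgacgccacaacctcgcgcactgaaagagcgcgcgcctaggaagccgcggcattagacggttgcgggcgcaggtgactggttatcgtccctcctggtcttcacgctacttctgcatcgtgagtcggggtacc
In the 3 mitotic stretches the capitals mark TTTGAA, the CHR, and CCAAT or its reverse complement ATTGG. In Mcm2 and Mcm5 they mark E2F matches, which lie directly before the start, and in Mcm5 also CCAAT. The Pcna stretch holds no match.

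Promoter windows of 300 bases, from 250 before the start to 50 after it, were listed in RefSeq for 36 of the 46 genes and searched on both strands. The letters TTTGAA or TTCGAA (CHR) were found in 16 of 23 mitotic promoters (69.6%) and in 3 of 11 replication promoters (27.3%), against 19.5% of the 27457 promoters of the table. Any of TTTGGCGC, TTTCCCGC, TTTGCCGC or TTTCGCGC (E2F) was found in 8 of 11 replication promoters (72.7%) and in 1 of 23 mitotic promoters (4.35%), that of Cdk1, against 2.25% of all promoters. CCAAT (NF-Y) was found in 73.9% of the mitotic and 72.7% of the replication promoters, against 37.7% of all. The 2 promoters available for the genes of the G1/S step and cell cycle transcription, those of Ccne1 and Mybl2, held none of these letters. Other forms of the E2F site were not searched, so the absence of a match does not mean that a promoter lacks the element. Among other genes of the same pathways the CHR was found in 41 of 58 mitotic promoters (70.7%) and the E2F letters in 17 of 41 replication promoters (41.5%). A match is a run of letters, and binding was not measured.

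**Figure D1:**
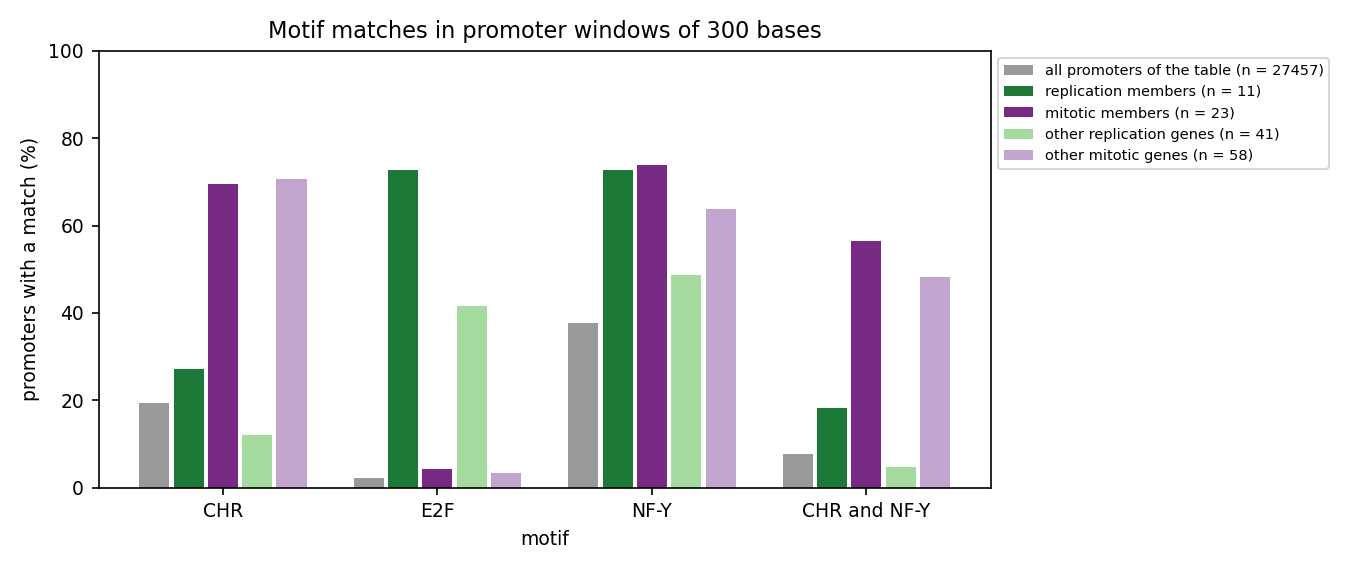
Share of promoters, in percent, that hold each motif (x axis) in the 27457 promoters of the table, the replication and mitotic genes described here and other genes of both pathways. The CHR letters are found in 69.6% of the 23 mitotic promoters and the E2F letters in 72.7% of the 11 replication promoters.

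Total counts ranged from 10082734 to 75634391 per library. Expression is given in normalized CPM, which puts all libraries on one scale by edgeR's TMM method and is not divided by gene length, so that values are compared between libraries of one gene and not between genes. The 46 genes took from 0.0111% to 0.0294% of all counts of a library. At 1 week no more than 1 of them had a count of 0 in any library. At 3 weeks up to 12 had none (3wk SBI + Lac replicate 3) and up to 24 had 3 counts or fewer, and 3 counts, the limit that a count of 0 allows, stood for 0.0360 CPM in the deepest library and 0.330 CPM in 3wk SBI + Lac replicate 3. These limits cover counting error only. The 1-week values are whole counts and the 3-week values carry decimals, so comparisons between time points also compare the counting. Skeletal muscle fibre markers were abundant in every library, with a sum between 88861 and 238840 CPM over the 10 of 12 markers in the table.

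Summed over the 27 mitotic genes, expression was 107, 68.3 and 60.5 CPM in replicates 1, 2 and 3 of 1wk SBI against 24.0, 41.6 and 42.2 CPM in 1wk SBI + Lac. At 3 weeks the sums were 28.0, 24.4 and 55.0 CPM in 3wk SBI against 17.9, 18.0 and 18.6 CPM in 3wk SBI + Lac. The 3 non-lactating libraries were above all 3 lactating ones at both times, 1wk SBI replicate 1 was the highest of its group, and 3wk SBI replicate 3 stood apart from the other two of its group. The group means were 78.4 ± 24.7 (SD, n = 3) and 35.9 ± 10.4 CPM at 1 week, a ratio of 2.18, and 35.8 ± 16.7 and 18.2 ± 0.355 CPM at 3 weeks, a ratio of 1.97. In bulk muscle, fewer dividing cells and less mitotic RNA per cell cannot be told apart.

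Summed over the 14 replication genes, expression was 128, 115 and 109 CPM in 1wk SBI against 108, 107 and 109.7 CPM in 1wk SBI + Lac, while 3 weeks after injury it was 116, 109 and 112 CPM in 3wk SBI against 120, 105 and 117 CPM in 3wk SBI + Lac. All 12 libraries lay between 105 and 128 CPM, and the groups overlapped at both times. The sum is weighted towards members with many counts (Rrm1, Mcm7 and Pcna), which changed little, and it hides the lower values of Mcm3, Mcm5 and Rrm2 given below. The mitotic sum divided by the replication sum of the same library, a value that does not depend on library scaling, was 0.834, 0.593 and 0.554 in 1wk SBI against 0.222, 0.388 and 0.385 in 1wk SBI + Lac, and it was 0.242, 0.223 and 0.489 in 3wk SBI against 0.149, 0.172 and 0.159 in 3wk SBI + Lac. The ratio was therefore higher without lactation in every library at 1 week and at 3 weeks, with the third library of 3wk SBI again above the other two.

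**Figure D2:**
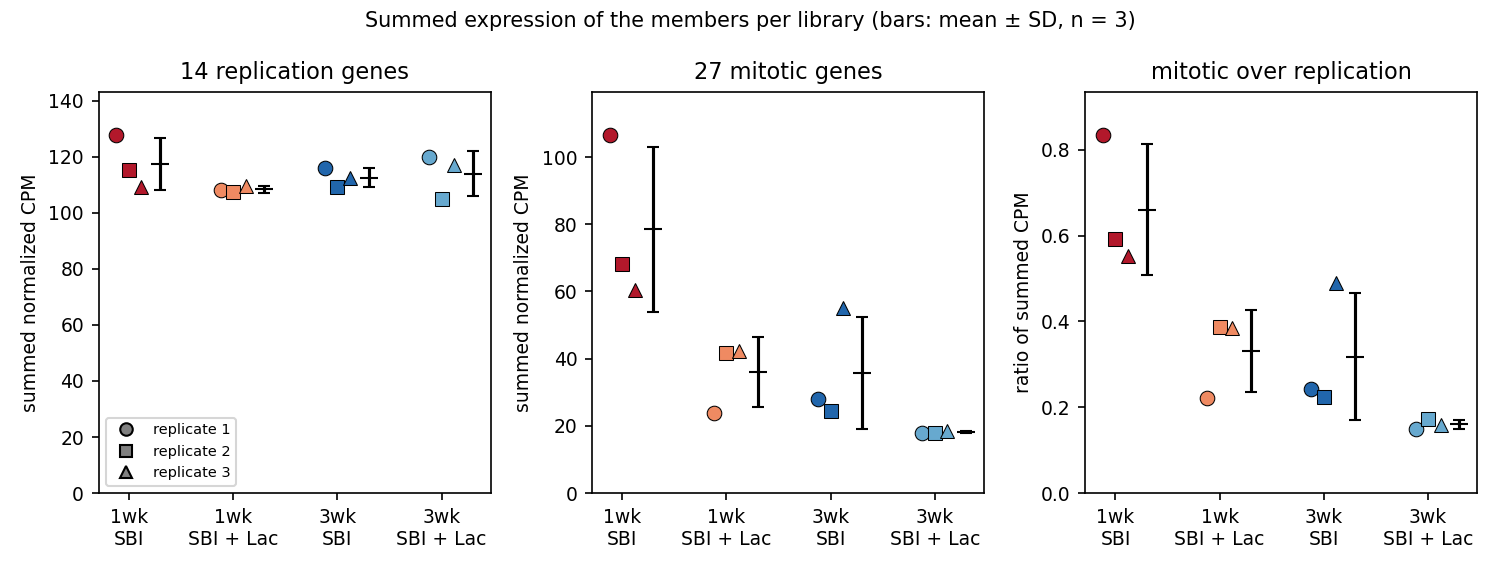
Summed normalized CPM of the 14 replication and 27 mitotic genes, and their ratio, in each of the 12 libraries by group, with marker shapes for the replicates and bars for mean ± SD (n = 3). The replication sum stays between 105 and 128 CPM, while the mitotic sum runs from 107 CPM in 1wk SBI replicate 1 down to 17.9 CPM in 3wk SBI + Lac replicate 1.

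The first comparison asked whether lactation changed these genes 1 week after injury. With lactation the fitted log2 fold change was below 0 for 27 of 27 mitotic genes, with a median of -1.34, for 5 of 5 genes of the G1/S step, and for 11 of 14 replication genes, with a median of -0.39. The share below 0 over all 14599 genes tested was 50.5%, and their median was 0.00 (-0.0038). The difference was 2-fold or more (log2 below -1) for 21 mitotic and 3 replication genes. None of the 46 passed both cutoffs, an adjusted p under 0.05 by edgeR's quasi-likelihood test with Benjamini-Hochberg adjustment and an absolute log2 fold change over 1, which 0.253% of all genes passed. At an unadjusted p under 0.05, 22 of the 46 were lower (13 mitotic, 6 replication and 3 G1/S genes) and 0 higher, against 9.16% of all genes lower. All 3 lactating libraries were below all 3 non-lactating ones for 27 of the 46 (19 mitotic, 5 replication), against 14.1% of all genes, and above them for 2 (Mcm7 and Rrm1), against 14.3%. With DESeq2, the tool the study used, 6 of the 46 passed the same cutoffs on all 12 libraries (Ccne2, Cdk1, Kif11, Kif4a, Prc1 and Ncaph), against 1.35% of the genes it tested, and 17 passed when the 6 libraries of the time point were fitted alone, against 2.23%. Whether a single gene passed at 1 week thus depended on the tool, and each was lower with lactation. On these 6 libraries alone 1 of the 46 (Cdc6) had too few counts for edgeR's filter. A gene can also pass that filter through its non-lactating libraries alone, where these genes were high, so no support is drawn from the counts over all 46.

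At 3 weeks after injury the same comparison gave a fitted log2 fold change below 0 for 27 of 27 mitotic genes, with a median of -1.58, and for 9 of 14 replication genes, with a median of -0.27, against 52.3% of all genes and a median of -0.02. Cyclin B2 (Ccnb2) and the spindle bundler Prc1 fell past both cutoffs, 2 of the 46 genes, against 0.74% of all genes. At an unadjusted p under 0.05, 23 of the 46 were lower (17 mitotic) and 0 higher, against 11.2% of all genes lower. The groups did not overlap, with the lactating one lower, for 14 of the 46 (10 mitotic, 3 replication), against 10.4% of all genes, and for 0 with the lactating one higher, against 11.9%. DESeq2 called 9 of the 46 on all 12 libraries, against 1.78%, and 2 of them (Cenpf and Prc1) on the 6 libraries of the time point, against 1.36%. It gave no adjusted p for 5 of the 46 on all 12 libraries and for 18, Ccnb2 among them, on the 6 libraries. On these 6 libraries alone 16 of the 46 had too few counts for edgeR's filter, so they were tested only because the 1-week libraries were in the fit, and no support is drawn from the count over all 46.

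The 3-week difference rested largely on one library. With 3wk SBI replicate 3 left out, the mitotic genes had a median of -0.36 with 21 of 27 below 0, the replication genes had one of -0.17, and 0 of the 46 passed the cutoffs, with 42 genes passing in all. Leaving out any other 3-week library left the mitotic median between -1.91 and -1.45. That library was the deepest of the 12, and it also held the highest sums of macrophage markers (1058 CPM, against 485 and 502 CPM in the other two of its group), of B cell and plasma cell markers (48.9 CPM, against 3.43 and 1.98 CPM) and of fibroblast markers (8331 CPM, against 3761 and 3641 CPM) in its group. Its sum of satellite cell and myoblast markers was 163 CPM, against 167 and 137 CPM. In 3wk SBI + Lac replicate 2, macrophage markers summed to 693 CPM and B cell and plasma cell markers to 34.5 CPM, at a mitotic sum of 18.0 CPM. Fibroblast markers summed to 3076 CPM in that library. The part of these cells in the difference was not tested. The 1-week difference moved less: the mitotic median was -0.98 without 1wk SBI replicate 1 and -1.60 to -1.03 without any one of the other five.

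**Figure D3:**
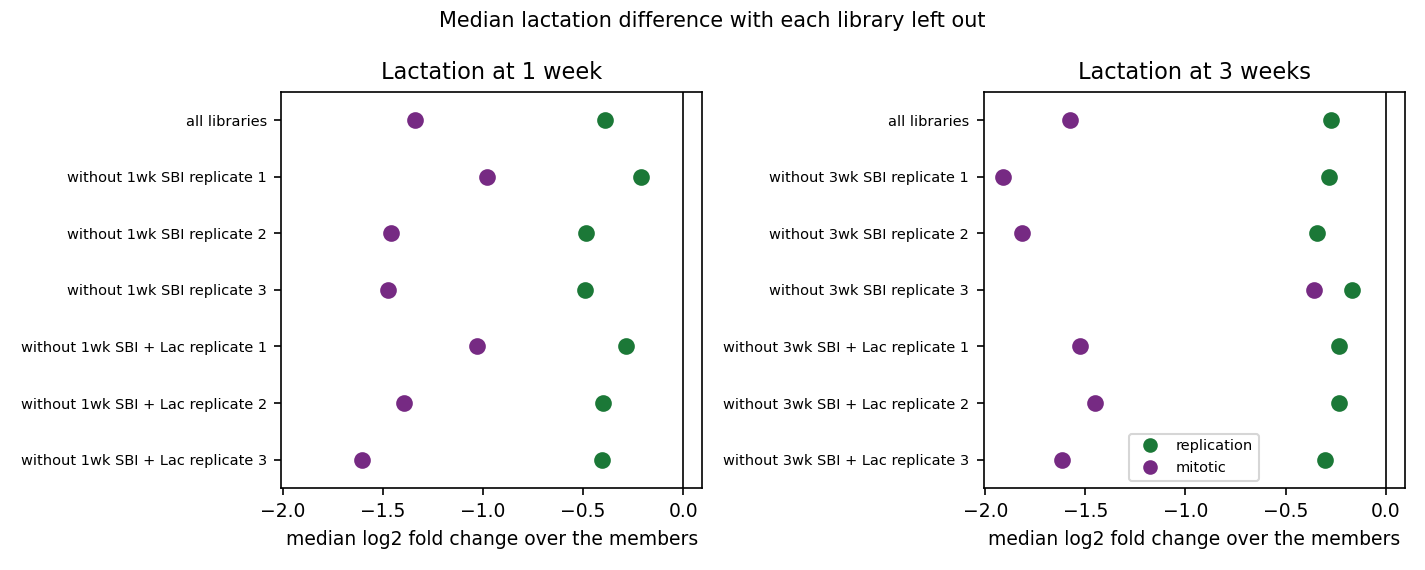
Median log2 fold change (lactating over non-lactating) of the replication and mitotic genes with all libraries and with each library left out, at 1 week and 3 weeks. The mitotic median at 3 weeks moves from -1.58 to -0.36 when 3wk SBI replicate 3 is left out, and at 1 week from -1.34 to -0.98 at most towards 0.

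**Figure D4:**
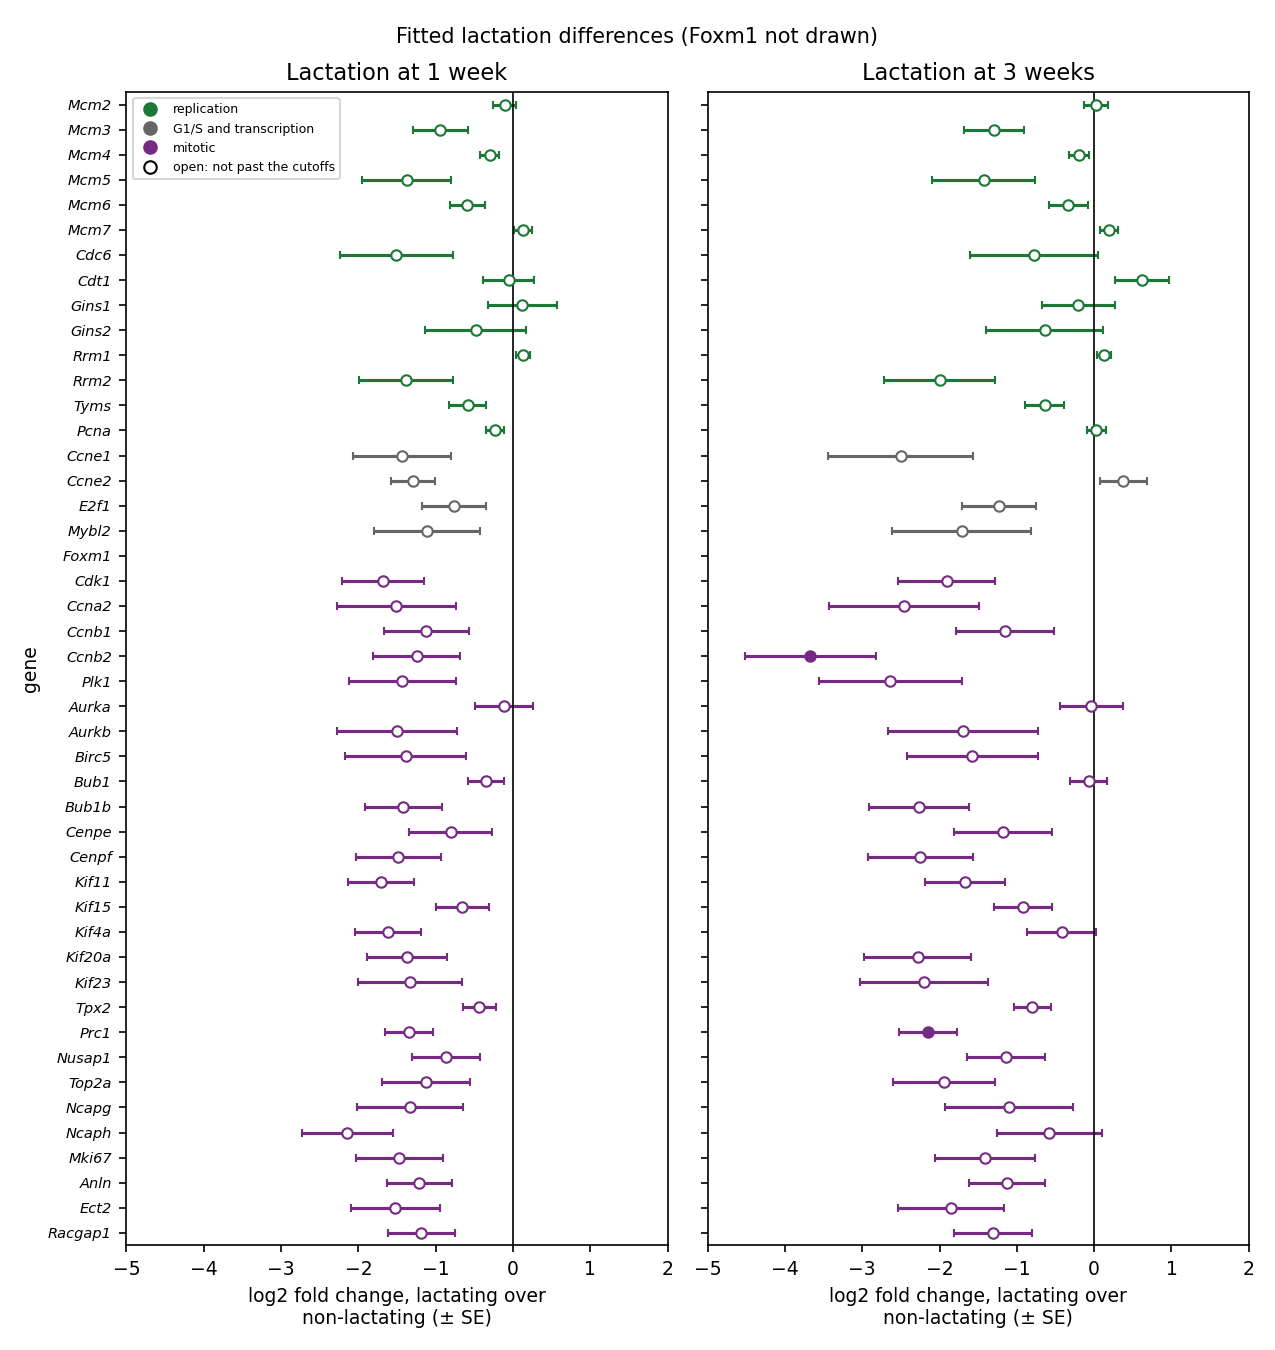
Fitted log2 fold change ± SE, lactating over non-lactating, of 45 genes at 1 week and 3 weeks, coloured by group, with open points for genes that did not pass both cutoffs. All 27 mitotic points lie below 0 in both panels, and filled points mark Ccnb2 and Prc1 at 3 weeks.

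Among the licensing and helicase genes, 8 of 10 were below 0 at 1 week and 7 of 10 at 3 weeks, and none passed the cutoffs. Mcm2, a subunit of the helicase ring, was 9.93, 7.76 and 8.93 CPM in 1wk SBI against 7.25, 9.22 and 8.31 in 1wk SBI + Lac, and 7.94, 7.18 and 8.47 in 3wk SBI against 7.91, 8.85 and 7.14 in 3wk SBI + Lac. All 4 groups overlapped, and the log2 fold change with lactation was -0.10 ± 0.15 (SE, adjusted p = 0.741) at 1 week and 0.03 ± 0.16 (SE, adjusted p = 0.944) at 3 weeks. Mcm5, another subunit of the same ring, was 3.85, 2.09 and 2.09 CPM in 1wk SBI against 1.31, 0.881 and 0.908 in 1wk SBI + Lac, and 0.858, 0.248 and 2.04 in 3wk SBI against 0.0977, 0.618 and 0.660 in 3wk SBI + Lac. Its 3 non-lactating libraries were above all lactating ones at 1 week, and the groups overlapped at 3 weeks, where 3wk SBI replicate 3 was the highest of the 6 libraries. The log2 fold change was -1.38 ± 0.58 (SE, adjusted p = 0.216) at 1 week and -1.43 ± 0.66 (SE, adjusted p = 0.236) at 3 weeks.

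The loading factor Cdc6 had the largest change of its group at 1 week and was 0.641, 0.455 and 0.211 CPM in 1wk SBI against 0.0984, 0.136 and 0.215 in 1wk SBI + Lac, and 0, 0.248 and 0.312 in 3wk SBI against 0.195, 0.130 and 0 in 3wk SBI + Lac. The groups overlapped at both times, and counts were few (none in 2 of the 3-week libraries). The log2 fold change was -1.51 ± 0.73 (SE, adjusted p = 0.277) at 1 week and -0.78 ± 0.83 (SE, adjusted p = 0.618) at 3 weeks. The other ring subunits did not move together: Mcm3 was lower in every lactating library at both times (-0.94 and -1.29 on the log2 scale), Mcm4 likewise with small differences (-0.30 and -0.19), Mcm6 was separate only at 1 week (-0.59 and -0.34), and Mcm7 was higher in every lactating library at 1 week (0.13 and 0.19). Cdt1, Gins1 and Gins2 overlapped between groups at both times, with log2 fold changes between -0.48 and 0.12 at 1 week and between -0.64 and 0.62 at 3 weeks.

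Of the nucleotide supply and clamp genes, Rrm2, the small ribonucleotide reductase subunit made in S phase, had the largest change at both times and was 5.00, 2.14 and 1.38 CPM in 1wk SBI against 0.525, 1.29 and 1.43 in 1wk SBI + Lac, and 1.61, 0.495 and 2.26 in 3wk SBI against 0.586, 0.358 and 0 in 3wk SBI + Lac. The groups overlapped at 1 week only through 1wk SBI replicate 3 and 1wk SBI + Lac replicate 3, and at 3 weeks through 3wk SBI replicate 2. The log2 fold change was -1.39 ± 0.61 (SE, adjusted p = 0.239) at 1 week and -2.00 ± 0.71 (SE, adjusted p = 0.134) at 3 weeks. Pcna, the polymerase clamp, was 18.7, 20.3 and 15.2 CPM in 1wk SBI against 16.2, 14.4 and 15.5 in 1wk SBI + Lac, and 18.1, 16.7 and 17.2 in 3wk SBI against 18.0, 16.7 and 18.4 in 3wk SBI + Lac. It overlapped at both times and differed by -0.23 ± 0.12 (SE, adjusted p = 0.284) at 1 week and 0.03 ± 0.12 (SE, adjusted p = 0.920) at 3 weeks. Tyms, which makes thymidylate, was lower in every lactating library at both times (-0.58 and -0.64, adjusted p = 0.199 and 0.165), whereas Rrm1, the large reductase subunit, was higher in every lactating library at 1 week by 0.13 and overlapped at 3 weeks (0.13).

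The 5 genes of the G1/S step govern entry into S phase or the transcription of the later genes. Foxm1, the activator of G2 and mitosis transcription, had 64 counts over the 3 libraries of 1wk SBI (0.433, 0.337 and 0.398 CPM) and 2 counts over those of 1wk SBI + Lac (0, 0 and 0.0478 CPM). It was lower in every lactating library, and the group ratio from these counts, non-lactating over lactating, was 19.8 with a 95% exact interval of 5.27 to 167 that covers counting error only. The fitted adjusted p was 0.0748. At 3 weeks it was listed at 0 in all 6 libraries, so no fold is given there. Of 14215 genes with at least as many counts over the 6 libraries of 1 week (66), Foxm1 was the 1 gene at 0 in all 6 of 3 weeks. In the other direction, 36 of 13847 genes (0.26%) with at least 66 counts at 3 weeks were at 0 in all 6 libraries of 1 week. A fall in Foxm1 expression and a difference in how the 2 times were counted cannot be told apart. E2f1, an activator of replication genes, was 2.05, 1.21 and 1.36 CPM in 1wk SBI against 0.459, 0.881 and 1.36 in 1wk SBI + Lac, and 0.965, 0.681 and 1.01 in 3wk SBI against 0.293, 0.472 and 0.330 in 3wk SBI + Lac. Its groups overlapped at 1 week, and at 3 weeks every lactating library was lower, with a log2 fold change of -0.76 ± 0.41 (SE, adjusted p = 0.328) at 1 week and -1.23 ± 0.48 (SE, adjusted p = 0.160) at 3 weeks.

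Ccne1, the cyclin that starts S phase with Cdk2, had the largest 3-week change of its group and was 2.07, 1.01 and 0.656 CPM in 1wk SBI against 0.492, 0.407 and 0.478 in 1wk SBI + Lac, and 0.215, 0 and 0.456 in 3wk SBI against 0.0326, 0.0650 and 0 in 3wk SBI + Lac. All lactating libraries were lower at 1 week, while at 3 weeks 3wk SBI replicate 2 had no count. The log2 fold change was -1.44 ± 0.63 (SE, adjusted p = 0.233) at 1 week and -2.50 ± 0.94 (SE, adjusted p = 0.145) at 3 weeks. Its partner gene Ccne2 did not follow it: Ccne2 was lower in every lactating library at 1 week (-1.29 ± 0.29 (SE, adjusted p = 0.0546)) and overlapped at 3 weeks (0.38 ± 0.30 (SE, adjusted p = 0.494)). The difference between the 2 lactation effects on Ccne2 was 1.67 ± 0.42 SE on the log2 scale (unadjusted p = 0.00110, adjusted p = 0.727), so it did not hold after adjustment. Mybl2, a partner of the CHR-binding complex in late S phase, overlapped at both times (-1.11 and -1.71).

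The mitotic kinases and cyclins were below 0 for 8 of 8 genes at both times. Cdk1, the kinase that starts mitosis, was 3.04, 1.32 and 1.99 CPM in 1wk SBI against 0.721, 0.373 and 0.860 in 1wk SBI + Lac, and 0.536, 0.433 and 1.40 in 3wk SBI against 0.326, 0.244 and 0 in 3wk SBI + Lac. Every non-lactating library was above every lactating one at both times, with a log2 fold change of -1.68 ± 0.53 (SE, adjusted p = 0.114) at 1 week and -1.91 ± 0.63 (SE, adjusted p = 0.104) at 3 weeks. Ccnb1, its main cyclin, was 2.23, 1.55 and 0.984 CPM in 1wk SBI against 0.426, 0.746 and 1.00 in 1wk SBI + Lac, and 0.644, 0.124 and 1.13 in 3wk SBI against 0.358, 0.358 and 0.110 in 3wk SBI + Lac. The groups overlapped by one library at each time, and the log2 fold change was -1.12 ± 0.55 (SE, adjusted p = 0.278) at 1 week and -1.16 ± 0.63 (SE, adjusted p = 0.312) at 3 weeks. Ccnb2, the second B cyclin, was 2.24, 1.42 and 1.08 CPM in 1wk SBI against 0.393, 1.15 and 0.478 in 1wk SBI + Lac, and 0.751, 0.619 and 0.840 in 3wk SBI against 0.130, 0 and 0.110 in 3wk SBI + Lac. At 3 weeks all lactating libraries were lower, from 5 counts in all, and the fall was -3.67 ± 0.85 (SE, adjusted p = 0.0363), past both cutoffs. At 1 week 1wk SBI + Lac replicate 2 was above 1wk SBI replicate 3, and the log2 fold change was -1.24 ± 0.56 (SE, adjusted p = 0.249). The 3-week call for Ccnb2 did not hold under a number of alternatives: it stood at an adjusted p of 0.115 with 3wk SBI replicate 3 left out and of 0.0781 when the 3-week libraries were fitted alone.

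Of the other members of that group, Plk1, Aurkb and Birc5 were lower in every lactating library at 1 week, with log2 fold changes from -1.50 to -1.39, and overlapped at 3 weeks. Ccna2, the cyclin of S phase and early mitosis, overlapped at both times (-1.51 and -2.46). Aurka, the centrosome kinase, had the smallest change of the 27 mitotic genes at both times (-0.11 and -0.04) and overlapped.

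The checkpoint and kinetochore genes were below 0 for 4 of 4 at both times. Bub1b, a kinase-like component of the spindle checkpoint, was 1.60, 1.11 and 1.01 CPM in 1wk SBI against 0.361, 0.475 and 0.549 in 1wk SBI + Lac, and 0.322, 0.248 and 0.720 in 3wk SBI against 0.0651, 0.146 and 0 in 3wk SBI + Lac. All lactating libraries were lower at both times, with a log2 fold change of -1.42 ± 0.50 (SE, adjusted p = 0.145) at 1 week and -2.27 ± 0.64 (SE, adjusted p = 0.0712) at 3 weeks. Cenpf, a kinetochore protein of G2 and mitosis, was 5.54, 4.18 and 2.46 CPM in 1wk SBI against 0.459, 2.20 and 1.70 in 1wk SBI + Lac, and 2.36, 0.805 and 2.38 in 3wk SBI against 0.0977, 0.520 and 0.660 in 3wk SBI + Lac. It too was separate at both times (-1.48 ± 0.55 (SE, adjusted p = 0.173) at 1 week and -2.25 ± 0.68 (SE, adjusted p = 0.0911) at 3 weeks). Cenpe, the kinetochore motor, overlapped at both times (-0.81 and -1.18), and Bub1, the checkpoint kinase that recruits Bub1b, changed least in the group (-0.35 and -0.07) and overlapped.

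The spindle motors and bundlers were below 0 for 8 of 8 at both times. Kif11, the motor that pushes the spindle poles apart, had the largest 1-week change of its group and was 3.75, 2.80 and 2.16 CPM in 1wk SBI against 0.393, 1.29 and 0.979 in 1wk SBI + Lac, and 0.429, 0.991 and 1.44 in 3wk SBI against 0.260, 0.341 and 0.440 in 3wk SBI + Lac. Every lactating library was lower at 1 week, and one 3-week library (3wk SBI replicate 1) fell within the lactating range. The log2 fold change was -1.71 ± 0.43 (SE, adjusted p = 0.0679) at 1 week and -1.67 ± 0.51 (SE, adjusted p = 0.0902) at 3 weeks. Prc1, which bundles the microtubules of the spindle midzone, was 7.32, 3.85 and 4.08 CPM in 1wk SBI against 1.41, 1.80 and 2.77 in 1wk SBI + Lac, and 1.61, 2.23 and 2.71 in 3wk SBI against 0.521, 0.488 and 0.550 in 3wk SBI + Lac. The groups did not overlap at either time, the 3 lactating libraries at 3 weeks lay close together, and the change was -1.34 ± 0.31 (SE, adjusted p = 0.0576) at 1 week and -2.15 ± 0.38 (SE, adjusted p = 0.0110) at 3 weeks, the latter past both cutoffs. The adjusted p at 3 weeks was 0.0532 without 3wk SBI replicate 3, at a log2 fold change of -1.93. Kif4a, Kif20a, Kif23, Tpx2 and Nusap1 were also separate at 1 week (log2 fold changes from -1.62 to -0.43), and Kif15, Kif20a and Tpx2 at 3 weeks (from -2.28 to -0.80). Kif4a, a motor that binds chromosome arms, was -1.62 at 1 week and -0.42 at 3 weeks, and the difference between the 2 did not pass (adjusted p = 0.999).

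The chromosome structure genes were below 0 for 4 of 4 at both times. Mki67, the coat protein of mitotic chromosomes used as a marker of proliferation, was 17.8, 9.51 and 9.84 CPM in 1wk SBI against 3.15, 4.34 and 5.85 in 1wk SBI + Lac, and 2.15, 0.805 and 7.84 in 3wk SBI against 1.76, 1.28 and 1.76 in 3wk SBI + Lac. All lactating libraries were lower at 1 week, and at 3 weeks 3wk SBI replicate 2 was the lowest of the 6 while replicate 3 was the highest. The log2 fold change was -1.47 ± 0.56 (SE, adjusted p = 0.193) at 1 week and -1.41 ± 0.65 (SE, adjusted p = 0.243) at 3 weeks, and the 3-week value turned to 0.19 without 3wk SBI replicate 3. Top2a, the topoisomerase that disentangles sister chromatids, was 9.00, 5.80 and 4.29 CPM in 1wk SBI against 1.38, 3.32 and 4.01 in 1wk SBI + Lac, and 0.965, 1.92 and 4.89 in 3wk SBI against 0.977, 0.862 and 0 in 3wk SBI + Lac. It was separate at 1 week and overlapped at 3 weeks, with -1.13 ± 0.56 (SE, adjusted p = 0.302) and -1.94 ± 0.66 (SE, adjusted p = 0.127). Ncaph, a condensin subunit, had the largest 1-week change of the 27 mitotic genes and was 2.44, 0.810 and 1.15 CPM in 1wk SBI against 0.361, 0.373 and 0.263 in 1wk SBI + Lac, and 0.107, 0.248 and 0.480 in 3wk SBI against 0.260, 0.276 and 0 in 3wk SBI + Lac. It was separate at 1 week (-2.15 ± 0.59 (SE, adjusted p = 0.0835)) and overlapped at 3 weeks (-0.58 ± 0.68 (SE, adjusted p = 0.657)), where the value likewise turned to 0.23 without 3wk SBI replicate 3. Ncapg, another condensin subunit, overlapped at both times (-1.33 and -1.10).

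The cytokinesis genes were below 0 for 3 of 3 at both times, all at an unadjusted p under 0.05. Ect2, the exchange factor that places the contractile ring, was 2.80, 0.978 and 0.984 CPM in 1wk SBI against 0.459, 0.576 and 0.621 in 1wk SBI + Lac, and 0.322, 0.310 and 1.06 in 3wk SBI against 0.163, 0.244 and 0 in 3wk SBI + Lac. Every lactating library was lower at both times, with a log2 fold change of -1.52 ± 0.57 (SE, adjusted p = 0.169) at 1 week and -1.86 ± 0.69 (SE, adjusted p = 0.141) at 3 weeks. Racgap1, its partner in the central spindle, was likewise separate at both times (-1.18 and -1.31), and Anln, the anillin scaffold, at 1 week only (-1.21 and -1.13).

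**Figure D5:**
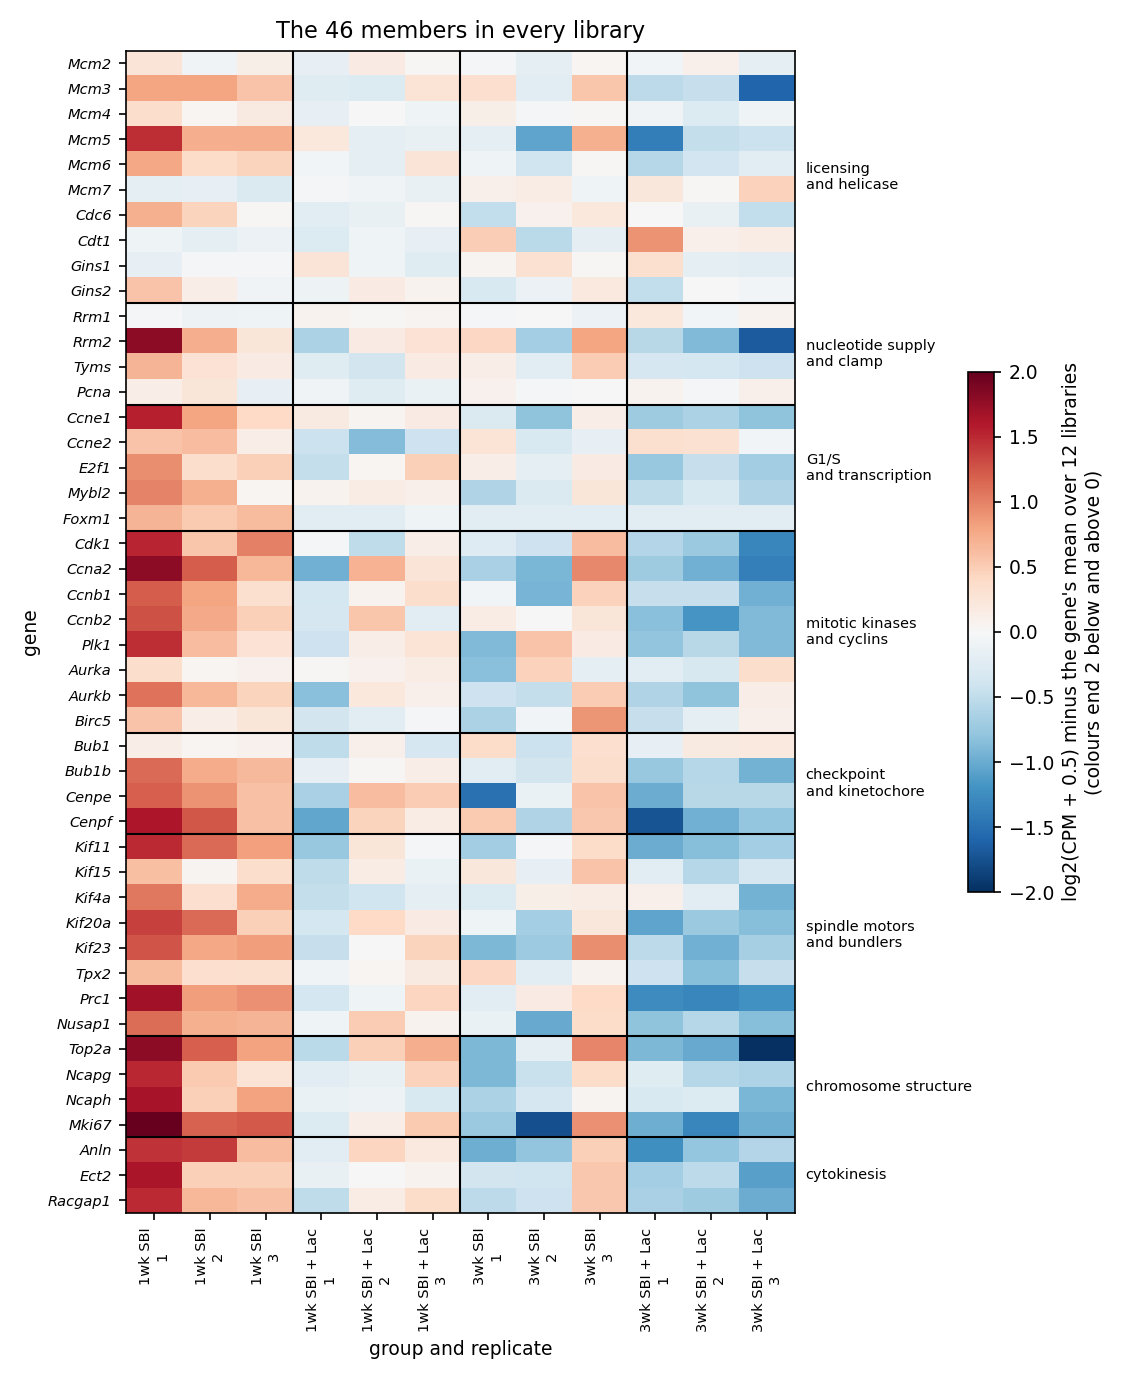
The 46 genes (rows, by role) in the 12 libraries (columns, by group and replicate), coloured by log2(CPM + 0.5) minus the gene's mean over the 12 libraries, with colours ending at -2 and 2. Of the 27 mitotic rows, 24 are highest in 1wk SBI replicate 1 (not Aurka, Birc5 and Bub1), 23 have their lowest group mean in 3wk SBI + Lac, and 23 are highest within 3wk SBI in replicate 3, while Mcm2, Mcm4, Mcm7, Rrm1 and Pcna vary little.

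The difference between the lactation effects of the 2 times was tested in the same fit. None of the 46 passed, against 0.00685% of all genes (1 gene), 2 had an unadjusted p under 0.05 (Ccnb2 and Ccne2), and DESeq2 called 0. The median difference was 0.03 for the replication genes and -0.26 for the mitotic genes, and the latter became 0.62 without 3wk SBI replicate 3, so the order of the 2 effects on the mitotic genes turned with that library.

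Between 1 week and 3 weeks without lactation, 25 of 27 mitotic genes were lower at 3 weeks and their median was -1.17 on the log2 scale, and the median of the replication genes was -0.19. Foxm1 and Prc1 passed the cutoffs (2 of 46, both lower), against 1.46% of all genes, and every 3-week library was below every 1-week one for 19 of the 46, against 11.4%. The Foxm1 call rests on its zeros at 3 weeks, and no fold is given for it. Prc1 fell by 1.16 on the log2 scale (adjusted p = 0.0461). Without 3wk SBI replicate 3 the mitotic median was -2.07, with 17 of the 46 passing, all lower, of 554 genes in all, and without 1wk SBI replicate 1 it was -0.87 with 0 passing. None passed either without 1wk SBI replicate 2 or 3wk SBI replicate 1 or 2, and 7 passed without 1wk SBI replicate 3. The totals over all genes are not given for these fits, so these counts are not read against a share. Mcm7 and Gins1 were higher in every 3-week library (2 of 46, against 10.2% of all genes). With lactation, 25 of 27 mitotic genes were lower at 3 weeks, with a median of -1.48, and that of the replication genes was -0.13. Ccnb2 and Prc1 passed, falling by 3.51 and 1.97 on the log2 scale (2 of 46, adjusted p = 0.0443 and 0.0164), against 0.774% of all genes, and 21 of the 46 did not overlap and were lower, against 14.7%. Leaving out any one of these 6 libraries ended at least one of the 2 calls, with 1 passing without 1wk SBI + Lac replicate 1 or 2 and 0 without the third or any 3wk SBI + Lac library. Another 4 of the 46 (Mcm7, Cdt1, Pcna and Ccne2) did not overlap and were higher at 3 weeks, against 13.4%. Ccne2 was higher by 1.02 on the log2 scale (adjusted p = 0.0893 by edgeR), and DESeq2 on all 12 libraries called it. In edgeR on the libraries with lactation alone, 9 of the 46 had too few counts for the filter. They were tested only because the other libraries were in the fit. A gene can also pass that filter through its 1-week counts alone, so no support is drawn from the time counts over all 46. Each 3-week group also enters a lactation comparison, so these values are not independent of those above, and the counting of the 2 times differed.

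The other genes of both pathways were described from lists that hold none of the 46. Of 62 other mitotic genes tested, 53 were below 0 with lactation at 1 week (median -0.68, none past the cutoffs) and 45 at 3 weeks (median -0.59), where the kinesin Kif20b passed both cutoffs (-2.72 ± 0.61 SE, adjusted p = 0.0337). The largest change at 1 week was that of Cenph, a kinetochore protein (-2.37 ± 0.75 SE, adjusted p = 0.114). Their sum, weighted towards members with many counts, had a group mean of 381 CPM without and 354 CPM with lactation at 1 week and of 319.9 and 344 CPM at 3 weeks, and the groups overlapped at both times. Of 47 rows of other replication genes, 28 were below 0 at 1 week (median -0.14) and 26 at 3 weeks (median -0.07), and none passed. The largest changes were those of Dbf4, the activator of the Cdc7 kinase, at 1 week (-1.98 ± 0.62 SE, adjusted p = 0.114) and of Ticrr, a loading factor of the helicase, at 3 weeks (-2.12 ± 1.05 SE, adjusted p = 0.265). Of 24 G1 cyclins, kinases and pocket proteins and of 20 inhibitors and brakes of the cell cycle, none passed both cutoffs at either time, the largest changes at 1 week being those of E2f8 (-1.73 ± 0.63 SE, adjusted p = 0.156) and Cdkn2a (-1.43 ± 0.81 SE, adjusted p = 0.345).

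The levels of cell type markers stand beside those of the mitotic genes here. Satellite cell and myoblast markers were below 0 with lactation for 9 of 10 genes at 1 week and 8 of 10 at 3 weeks, with sums of 273 to 622, 228 to 324, 137 to 167 and 123 to 149 CPM in the order 1 week without and with lactation, then 3 weeks without and with it. Macrophage and monocyte markers were below 0 for 14 of 15 and 15 of 15, with sums of 666 to 754, 414 to 586, 485 to 1058 and 426 to 693 CPM in the same order, and Cd68 fell past both cutoffs at 3 weeks (-1.08 ± 0.20 SE, adjusted p = 0.0150). T cell markers were below 0 for 10 of the 10 tested at both times, with sums of 15.0 to 28.3, 6.17 to 13.4, 11.3 to 24.9 and 2.97 to 8.86 CPM, and Cd8b and Cd28 fell past both cutoffs at 3 weeks (-2.48 and -1.99 on the log2 scale). Cd4 and Trac of that list had no row under these symbols in the count table. No marker of these 3 lists passed both cutoffs at 1 week.

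Fibroblast markers were below 0 for 9 of 11 at 1 week and 10 of 11 at 3 weeks, with sums of 7604 to 11011, 4446 to 8301, 3641 to 8331 and 2221 to 3186 CPM. Markers of regenerating fibres were below 0 for 6 of 6 and 5 of 6, and those of mature fibres were above 0 for 10 of 10 at 1 week and 8 of 10 at 3 weeks, none past the cutoffs. In the same order of groups, regenerating fibre sums were 2425 to 5657, 1192 to 1896, 340 to 965 and 319 to 398 CPM. Mature fibre sums were 88861 to 143105, 144027 to 172590, 139702 to 190836 and 207603 to 238840 CPM. Erythroid markers were above 0 for 4 of the 4 tested at both times, with sums of 242 to 414, 556 to 780.4, 97.3 to 183 and 132 to 242 CPM, and mammary epithelium markers, such as the casein Csn2, were above 0 for 4 of 5 and 3 of 5, with sums of 0.797 to 1.87, 1.44 to 3.70, 0.805 to 2.68 and 0.660 to 40.0 CPM. None of either list passed both cutoffs with lactation. The mammary sum was highest in 3wk SBI + Lac replicate 1. Endothelial markers, below 0 for 5 of 9 and 6 of 9, moved little, with sums from 304 to 425 CPM over the 12 libraries. Of the B cell and plasma cell list, 4 of 10 genes could be tested and 6 had too few counts. The part of each cell type in the difference of the mitotic genes was not tested.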

How the data were processed

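The 46 genes and all lists were chosen with earlier results of these data known. Pubocaudalis mRNA was sequenced from stranded libraries, 12 in all, each from 2 pooled rats. The authors deposited one table of unnormalized values per gene, whole counts for 1 week and values with decimals, taken as estimated counts and rounded here, for 3 weeks. The submitters' processing notes name Salmon, and build and annotation are not given in the sources used here. Groups and replicates came from the sample labels. The study calls the 3 pools of a group technical replicates made from 6 rats, so p-values measure the spread between pools. No pair of libraries of a group agreed within counting noise (chi-square of 22.1 to 100.1 for each degree of freedom).

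edgeR 4.0.16 (R 4.3.3; TMM, filterByExpr, robust quasi-likelihood fit of 4 groups over 12 libraries) tested 14599 genes, the 46 included, with Benjamini-Hochberg adjustment over all of them. Cutoffs were an adjusted p of 0.05 and an absolute log2 fold change of 1. SE came from the fold change and its F statistic. In simulated counts for the lactation comparison at 1 week over 14412 genes, 174 of 199 changed genes (87.4%) were called, with 5 false calls. All changes put in were larger in size than the median fitted changes of the mitotic and replication genes at 1 week. They were put into genes drawn from all those tested, with the spread taken from the trend over genes. The share called therefore does not describe the 46. Alternatives were RLE and upper-quartile scaling, no filter, unrounded values, thinning to equal totals, DESeq2 1.42.0, fits of the compared libraries alone, a replicate block and each library left out. Medians over genes are descriptions without a test. Values in every library are given for 11 genes chosen by name, for those called in a lactation contrast and for the largest change per role and contrast, and other genes of the 46 by range. Of each further list the called genes (at most 3) or the largest change are named, and Cd8b and Cd28 are the called T cell genes. Promoter windows came from RefSeq (GRCr8), and figures were drawn with matplotlib 3.10.9.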

Additional observations from a re-analysis of the deposited data

How the results depend on the processing

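Counts of calls moved with the tool and the libraries, and the direction of the medians did not at either lactation comparison: the medians of the mitotic and replication genes stayed below 0 in all 15 alternatives at 1 week and at 3 weeks. Of all genes, 83, 371, 737 and 293 passed an adjusted p of 0.05 with no fold cutoff (lactation at 1 week and 3 weeks, time without and with lactation), 8 and 64 passed with a replicate block at 1 and 3 weeks, DESeq2 called 188, 242 and 248 on 12 libraries and 332, 175 and 253 on the libraries compared (lactation at 1 week, at 3 weeks, and time with lactation), and edgeR on the libraries compared called 110 at 1 week, 103 in time without and 191 in time with lactation. Of the 46, no filter gave 1 call at 1 week. In the order of the 4 comparisons above, DESeq2 on 12 libraries gave 6, 9, 6 and 8, DESeq2 on the libraries compared gave 17, 2, 5 and 7, edgeR on these gave 3, 1, 0 and 6, the replicate block 0, 1, 0 and 1, and thinning 1 in each time comparison. Some of the 46 had no adjusted p there: 3, 5, 5 and 1 by DESeq2 on 12 libraries. On the libraries compared these were 0, 18, 2 and 8 by DESeq2 and 1, 16, 0 and 9 by edgeR. A missing call of such a gene is no test result. Where no total over all genes is given above for a setting and comparison, the count of the 46 is not set against a share. It is then no result about these genes. For the difference of effects 0 of the 46 passed in any alternative, while of all genes 2 passed without a filter, 2 with the block and 11 by DESeq2. The mitotic median at 3 weeks was -1.16 with the block, and thinning gave -0.19 for the replication genes at 1 week and -1.86 for the mitotic genes in time with lactation, where edgeR on the libraries compared gave -0.043 for the replication genes.

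With each library left out, 0 to 3 of the 46 passed at 1 week (3 without 1wk SBI replicate 3), 0 to 3 at 3 weeks (0 without 3wk SBI replicate 3 or 3wk SBI + Lac replicate 1 or 2), 0 to 17 in time without lactation (17 without 3wk SBI replicate 3) and 0 to 1 in time with lactation. Genes in all ranged from 2 to 235, 22 to 157, 61 to 554 and 27 to 77, and from 1 to 5 for the difference. These ranges give no share for a single fit. Mitotic medians ranged from -1.60 to -0.98, -1.91 to -0.36, -2.07 to -0.87 and -1.71 to -1.29, and from -0.50 to 0.62 for the difference. Replication medians ranged from -0.49 to -0.21, -0.34 to -0.17, -0.37 to -0.076 and -0.25 to -0.013, and from 0.00 (-0.0024) to 0.22. Prc1 at 3 weeks missed the cutoff without 3wk SBI replicate 3, 3wk SBI + Lac replicate 1 or replicate 2 (adjusted p 0.0532 to 0.0599), and Ccnb2 without these, without 3wk SBI + Lac replicate 3, with the block (0.0704) and after thinning (0.0524). The cause was not tested.

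Equal replicate numbers name different rats, and 3 of 18 same-number pairs correlated over 0.1 (from -0.307 to 0.317), so the replicate block is no pairing and its lost calls are not read as weaker effects. Low counts at 3 weeks limit single genes, and the 2 shallow libraries of 3wk SBI hold few mitotic counts.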
